A study of Mus musculus with 12 samples.

Results

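The genes described here make cholesterol, regulate its synthesis, and move, store or export it. They are 28 genes taken by symbol from a fixed list, and all 28 were found among the 24890 features listed, each at 1 locus, and passed the filter on low values that left 13175 features for testing. Of them, 18 encode enzymes of synthesis, 4 regulate synthesis, and 6 act in transport, storage and export. The list does not hold every enzyme of the pathway. RNA was sequenced from 12 libraries of male C57BL/6J mice aged 18 weeks that had eaten normal chow and had received no treatment. The 4 groups of 3 libraries were adipocytes of inguinal adipose tissue (IAT, a subcutaneous depot), adipocytes of epididymal adipose tissue (EAT, a visceral depot), stromal vascular cells (SVCs) of IAT and SVCs of EAT. Collagenase I had freed the adipocytes from the SVCs, which are a mixture of all other cells of the tissue. The labels do not say whether the libraries were separate or pooled mice, and p-values therefore reflect only how far these libraries spread, which may be technical.

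Cells build cholesterol from acetyl-CoA through mevalonate, farnesyl diphosphate, squalene and lanosterol. The transcription factor SREBP2 (gene Srebf2) drives the genes of this pathway when membrane sterol is low, and the sensor SCAP carries it from the endoplasmic reticulum to the Golgi for cleavage, which the INSIG proteins prevent when sterol is ample. Cholesterol that reaches lysosomes leaves them through NPC1 and NPC2, can be esterified by SOAT1, and leaves the cell through ABCA1 and ABCG1. Adipocytes hold a large pool of free cholesterol in the membrane and at the lipid droplet.

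Values are FPKM, fragments scaled for the length of the exons and for the number of mapped fragments. Differences are of log2(FPKM + 1) with their standard error (SE), and a gene is called higher or lower where limma's Benjamini-Hochberg adjusted p over all features tested is under 0.05. The adipocyte markers Adipoq, Plin1, Cidec, Lep, Adrb3, Lipe, Retn and Cfd summed to 29129 to 32736 FPKM in IAT adipocytes, 25254 to 34063 FPKM in EAT adipocytes, 195 to 225 FPKM in IAT SVCs and 74.4 to 88.4 FPKM in EAT SVCs. The stromal progenitor markers Pdgfra, Dcn, Col1a1, Col3a1, Dpp4, Pi16 and Lum summed to 268 to 307 FPKM in IAT adipocytes, 224 to 241 FPKM in EAT adipocytes, 5325 to 5496 FPKM in IAT SVCs and 4332 to 5035 FPKM in EAT SVCs, so the markers of each fraction were high where its label puts them. A library held 10718 to 12418 features at 1 FPKM or more. EAT adipocyte replicate 1 stood apart, with a Pearson correlation to its group down to 0.982 across genes, against at least 0.992 within the SVC groups. It was the highest of its group for 13 of the 18 synthesis enzymes (72.2%), against 42.9% of all features tested. Comparisons of adipocytes were therefore also made without it. In bulk libraries, fewer cells of a type and less RNA per cell cannot be told apart.

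Adipocytes carried more transcript of most synthesis enzymes than SVCs did in both depots. The 18 enzymes summed to 435 to 467 FPKM in IAT adipocytes and 174 to 184 FPKM in IAT SVCs, and to 381 to 495 FPKM in EAT adipocytes and 163 to 172 FPKM in EAT SVCs. In IAT 12 of the 18 enzymes were higher in adipocytes and 2 were lower, and in EAT 13 were higher and 1 was lower. The median difference of the 18 was 0.88 in each depot, against -0.34 in IAT and -0.31 in EAT over all features tested. The background was high, since 83.7% of all features passed the test in IAT (29.8% higher and 53.9% lower) and 83.8% in EAT (31.1% higher and 52.7% lower). The median was 1.31 in IAT and 1.47 in EAT for the early pathway and 0.17 in IAT and 0.32 in EAT from squalene onward. All 7 enzymes from acetoacetyl-CoA to farnesyl diphosphate were higher in EAT adipocytes than in EAT SVCs and 6 of the 7 in IAT, where Mvd was not called. Of the 11 enzymes from squalene onward, 6 were higher in each depot.

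**Figure D1:**
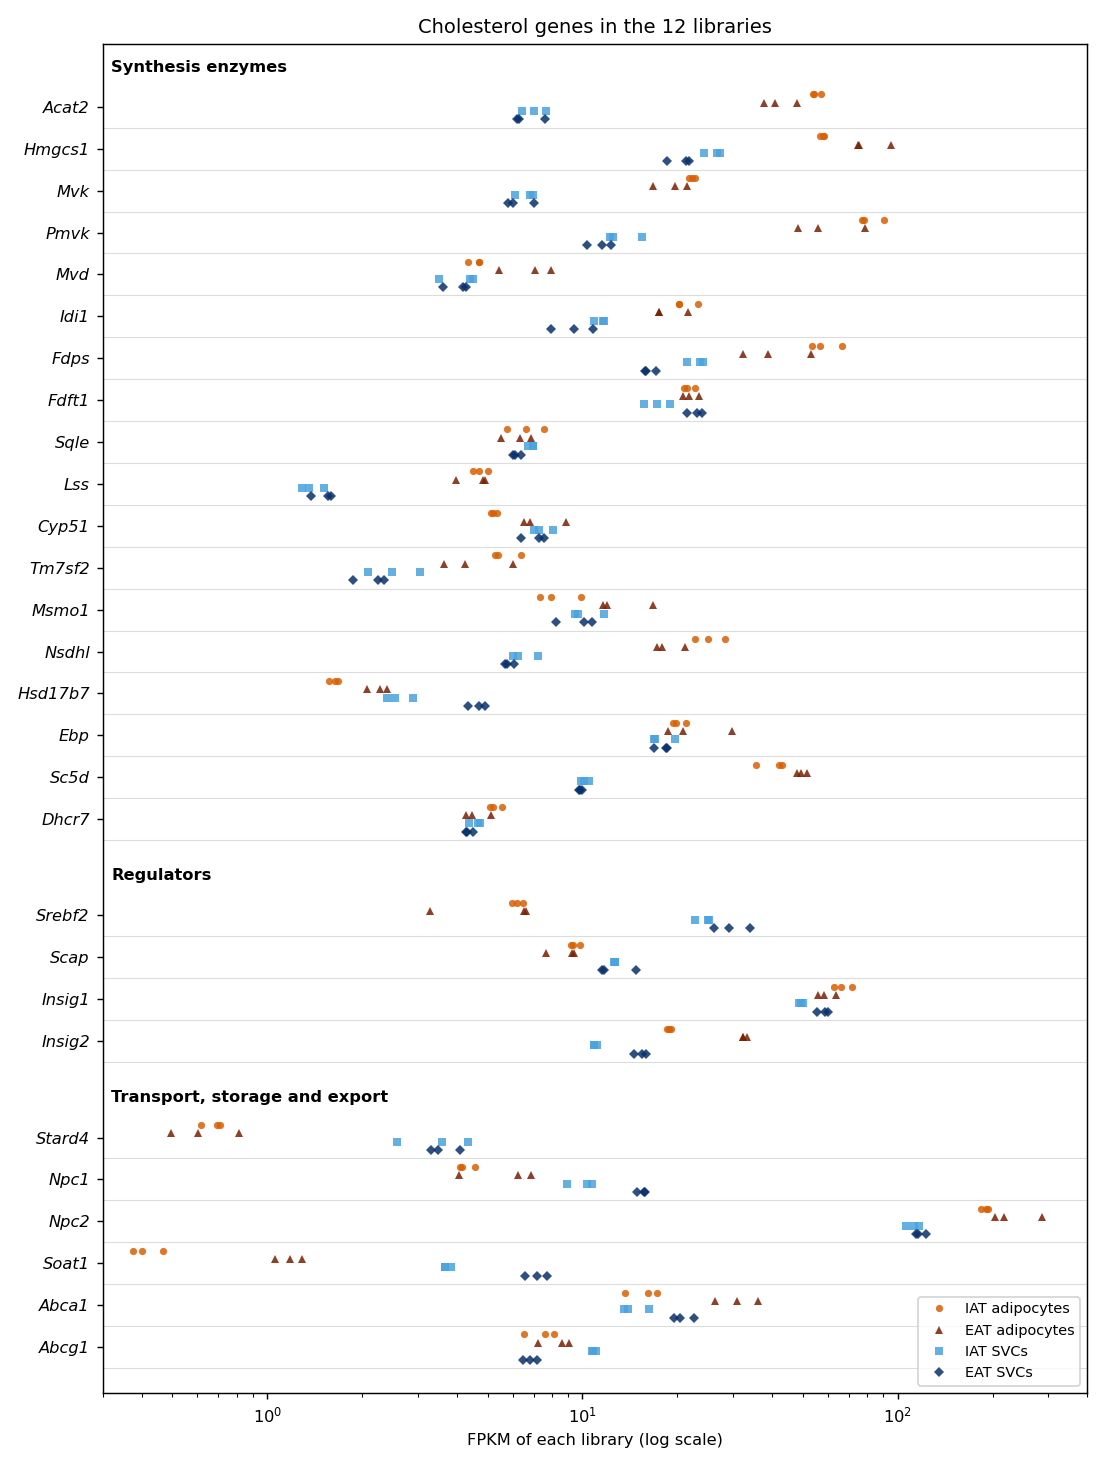
FPKM of the 28 genes in each of the 12 libraries on a logarithmic axis, grouped by role, with 1 symbol per group. Acat2, Pmvk, Nsdhl and Sc5d separate adipocytes from SVCs by a wide gap, Sqle and Dhcr7 show little separation, and Srebf2, Stard4, Npc1 and Soat1 lie to the left in adipocytes.

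Acat2, the cytosolic thiolase that joins acetyl-CoA into acetoacetyl-CoA, showed the largest excess of the 18. It had 57.0, 54.1 and 54.0 FPKM in IAT adipocytes, against 7.66, 7.03 and 6.43 FPKM in IAT SVCs, and 48.0, 37.6 and 40.7 FPKM in EAT adipocytes, against 6.31, 6.21 and 7.63 FPKM in EAT SVCs. Adipocytes lay above SVCs in every library of both depots. The difference was 2.80 ± 0.10 in IAT (limma adjusted p = 2.6e-11) and 2.48 ± 0.10 in EAT (limma adjusted p = 8.8e-11). Pmvk, phosphomevalonate kinase, followed at 2.53 ± 0.15 in IAT and 2.30 ± 0.15 in EAT, with means of 81.8 ± 7.44 FPKM in IAT adipocytes, 13.4 ± 1.80 FPKM in IAT SVCs, 61.0 ± 15.9 FPKM in EAT adipocytes and 11.4 ± 0.961 FPKM in EAT SVCs (SD, n = 3 each). Sc5d, a sterol desaturase near the end of the pathway, differed by 1.88 ± 0.075 in IAT and 2.23 ± 0.075 in EAT.

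Mvk (mevalonate kinase), Nsdhl (a sterol dehydrogenase), Fdps (farnesyl diphosphate synthase), Lss (lanosterol synthase), Idi1 (isopentenyl diphosphate isomerase), Tm7sf2 (a sterol reductase) and Hmgcs1 (HMG-CoA synthase) were also called higher in adipocytes of both depots, by 0.82 to 1.94. Lss had the lowest SVC level of the 28 genes, with 4.73 ± 0.269 FPKM in IAT adipocytes against 1.39 ± 0.112 FPKM in IAT SVCs, and 4.57 ± 0.525 FPKM in EAT adipocytes against 1.51 ± 0.110 FPKM in EAT SVCs. Sqle, the squalene epoxidase that is often the slow step of the later pathway, passed the test in neither depot as deposited, at 6.65 ± 0.900 FPKM in IAT adipocytes, 6.89 ± 0.145 FPKM in IAT SVCs, 6.24 ± 0.692 FPKM in EAT adipocytes and 6.17 ± 0.201 FPKM in EAT SVCs. Under median-of-ratios scaling Sqle was called higher in adipocytes, by 0.29 in IAT and 0.30 in EAT (limma adjusted p = 0.018 and 0.016). Quantile normalization also called it higher, by 0.37 in IAT and 0.40 in EAT (limma adjusted p = 0.00314 and 0.00176). Hsd17b7, a sterol ketoreductase, was lower in adipocytes of both depots, by -0.46 ± 0.073 in IAT (limma adjusted p = 6.8e-05) and -0.79 ± 0.073 in EAT (limma adjusted p = 3.5e-07). Under quantile normalization the IAT call was lost and the sign turned, at 0.11 (limma adjusted p = 0.129).

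The remaining enzymes were called in 1 depot. Fdft1 (squalene synthase) was higher in IAT adipocytes by 0.31 ± 0.080, Dhcr7 (the reductase of the last step) by 0.17 ± 0.073, and Cyp51 (lanosterol demethylase) was lower there by -0.44 ± 0.10. Mvd (mevalonate diphosphate decarboxylase), Msmo1 (methylsterol monooxygenase) and Ebp (a sterol isomerase) were higher in EAT adipocytes by 0.63 ± 0.12, 0.42 ± 0.15 and 0.32 ± 0.13. The Dhcr7 call in IAT (limma adjusted p = 0.0475) was lost under 12 of the 21 alternative settings and the Ebp call in EAT (limma adjusted p = 0.039) under 6. Without EAT adipocyte replicate 1 the Ebp difference in EAT was 0.13 (limma adjusted p = 0.146). The Msmo1 call in EAT was lost without EAT adipocyte replicate 1 (limma adjusted p = 0.0658) and without EAT SVC replicate 2 (limma adjusted p = 0.0806). The median over all features moved to -0.03 in IAT and -0.04 in EAT under median-of-ratios scaling, which split the calls over all features into 48.8% higher in IAT and 48.3% in EAT, against 35.6% and 37.1% as deposited. Under that scaling 15 of the 18 enzymes were called higher in IAT and 17 in EAT, and the Cyp51 call in IAT was lost at -0.10 ± 0.11, as it was under quantile normalization (limma adjusted p = 0.974).

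**Figure D2:**
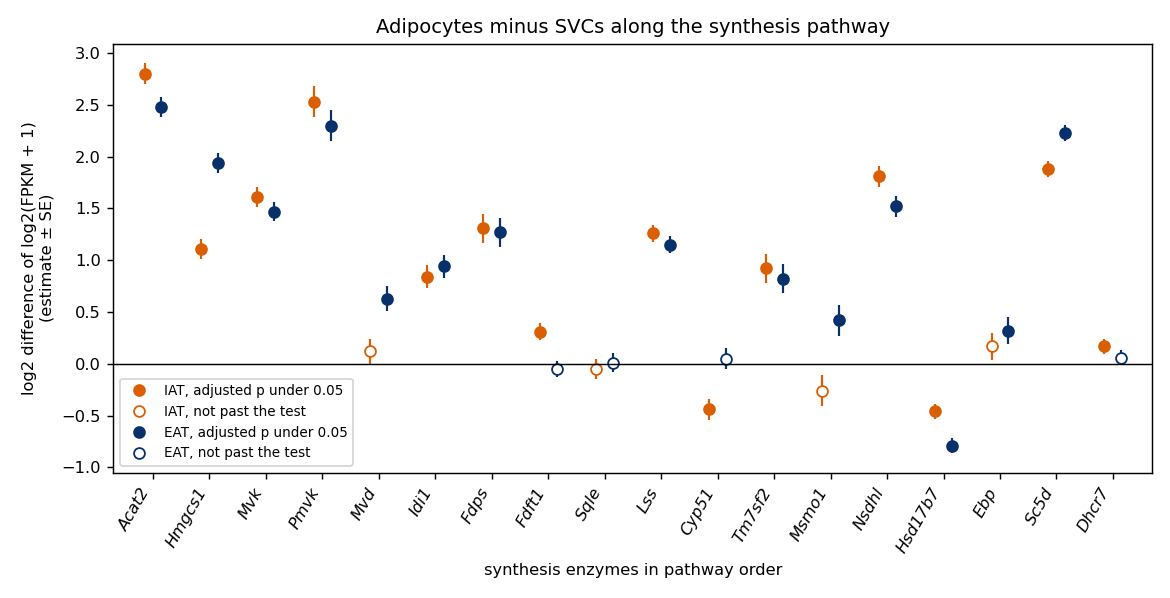
Adipocyte minus SVC difference of log2(FPKM + 1), with SE bars, for the 18 synthesis enzymes in pathway order in IAT and EAT; filled points passed the test and open points did not. The differences reach 2.80 for Acat2 in IAT, lie near 0 for Sqle in both depots, and lie below 0 for Hsd17b7 in both.

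Between depots, the enzymes of adipocytes moved in both directions, so that no single sign covers the pathway. Of the 18 enzymes, 4 were higher in IAT adipocytes than in EAT adipocytes (Acat2, Pmvk, Fdps and Nsdhl) and 6 were lower (Hmgcs1, Mvd, Cyp51, Msmo1, Hsd17b7 and Sc5d), with a median difference of 0.06. Over all features tested the median was -0.10, and 37.6% passed the test (10.3% higher and 27.3% lower). In SVCs, 2 enzymes were higher in IAT (Hmgcs1 and Fdps) and 2 were lower (Fdft1 and Hsd17b7), with a median of 0.07, against a median of -0.06 and 40.2% called over all features (14.0% higher and 26.2% lower). The promoters of 5 of the genes that differed between depots or fractions are printed here so that their sequence can be set beside these opposite directions: Hmgcs1 and Msmo1 were lower in IAT adipocytes, Nsdhl and Acat2 were higher, and the regulator Insig1 differed in SVCs. Each window runs 5′ to 3′ on the gene's own strand from 250 bases before the RefSeq start to 50 bases after it, 300 bases in all, in build GRCm38.p6. The windows are chr13:119690101-119690400 (plus strand, Hmgcs1), chr8:64733529-64733828 (minus strand, Msmo1), chrX:72918271-72918570 (plus strand, Nsdhl), chr17:12960676-12960975 (minus strand, Acat2) and chr5:28071162-28071461 (plus strand, Insig1). Capitals mark CCAAT or its reverse complement ATTGG, the core bound by NF-Y, which works beside SREBP at sterol-responsive promoters, and TCACCCCAC, a match to a form of the sterol regulatory element.
Hmgcs1: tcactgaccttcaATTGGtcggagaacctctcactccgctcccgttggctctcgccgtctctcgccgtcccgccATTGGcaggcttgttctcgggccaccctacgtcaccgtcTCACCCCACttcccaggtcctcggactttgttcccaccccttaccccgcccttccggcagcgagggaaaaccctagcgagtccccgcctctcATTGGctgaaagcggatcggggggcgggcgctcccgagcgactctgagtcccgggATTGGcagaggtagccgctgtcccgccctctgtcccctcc
Msmo1: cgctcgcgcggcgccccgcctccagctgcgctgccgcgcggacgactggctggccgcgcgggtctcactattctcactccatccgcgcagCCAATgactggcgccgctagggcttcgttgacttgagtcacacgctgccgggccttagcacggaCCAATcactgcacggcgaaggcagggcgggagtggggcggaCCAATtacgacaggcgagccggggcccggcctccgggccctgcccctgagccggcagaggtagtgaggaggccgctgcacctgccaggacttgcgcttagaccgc
Nsdhl: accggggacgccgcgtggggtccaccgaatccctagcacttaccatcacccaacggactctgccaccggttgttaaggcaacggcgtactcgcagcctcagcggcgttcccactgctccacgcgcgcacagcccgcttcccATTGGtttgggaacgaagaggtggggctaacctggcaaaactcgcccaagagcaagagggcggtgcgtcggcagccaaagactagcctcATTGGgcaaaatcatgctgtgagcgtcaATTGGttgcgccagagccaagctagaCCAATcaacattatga
Acat2: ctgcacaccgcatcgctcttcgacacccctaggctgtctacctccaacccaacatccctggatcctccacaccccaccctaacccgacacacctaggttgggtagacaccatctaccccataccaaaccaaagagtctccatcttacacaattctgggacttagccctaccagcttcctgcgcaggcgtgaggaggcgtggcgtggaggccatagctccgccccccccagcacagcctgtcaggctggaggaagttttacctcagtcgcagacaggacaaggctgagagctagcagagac
Insig1: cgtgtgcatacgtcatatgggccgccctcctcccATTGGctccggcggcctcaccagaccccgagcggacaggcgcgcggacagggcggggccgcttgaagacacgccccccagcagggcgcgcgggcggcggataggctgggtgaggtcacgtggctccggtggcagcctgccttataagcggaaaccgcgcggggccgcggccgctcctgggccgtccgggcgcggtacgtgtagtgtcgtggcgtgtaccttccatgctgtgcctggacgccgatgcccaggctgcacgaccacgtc

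RefSeq windows were held for 22 of the 28 genes, and none for Fdps, Fdft1, Sqle, Stard4, Npc1 and Abcg1. CCAAT on either strand was present in a window of 14 of the 15 synthesis enzymes matched, 3 of the 4 regulators and 2 of the 3 handling genes, against 41.1% of 27025 genes with at least 1 window. Both genes higher in IAT adipocytes and genes lower there held it: Hmgcs1 had 4 matches, Msmo1 had 3 and Nsdhl had 4, while Acat2 had none. Insig1, which was not called between adipocyte groups, had 1. The letters TCACNCCAC, on either strand, were found in Hmgcs1 alone of the 22, at 137 bases before the start on the plus strand, and in 1.44% of all genes. The match in Hmgcs1 did not overlap any of its CCAAT matches. A match describes the letters of the window and is not a binding site.

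Hmgcs1, which condenses acetoacetyl-CoA to HMG-CoA, was lower in IAT adipocytes and higher in IAT SVCs than in their EAT counterparts. It had 57.9, 56.6 and 58.3 FPKM in IAT adipocytes and 95.1, 75.1 and 75.5 FPKM in EAT adipocytes. In SVCs it had 24.3, 26.7 and 27.3 FPKM in IAT and 21.8, 18.5 and 21.3 FPKM in EAT. Neither pair of groups overlapped, and the 2 depots stood in opposite order in the 2 fractions. The IAT minus EAT difference was -0.49 ± 0.097 in adipocytes (limma adjusted p = 0.00178) and 0.33 ± 0.097 in SVCs (limma adjusted p = 0.0148). The interaction term, which is the adipocyte difference minus the SVC difference in the same model, was -0.83 ± 0.14 (limma adjusted p = 5.5e-04). The SVC call was lost when EAT SVC replicate 2, IAT SVC replicate 2 or IAT SVC replicate 3 was left out.

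Mvd, which yields the first isoprenoid unit, had 4.70, 4.32 and 4.71 FPKM in IAT adipocytes and 7.94, 5.45 and 7.09 FPKM in EAT adipocytes. In SVCs it had 4.41, 4.50 and 3.50 FPKM in IAT and 4.27, 4.19 and 3.61 FPKM in EAT. EAT adipocytes were the high group, with no overlap with IAT adipocytes, and the SVC groups overlapped. The difference was -0.48 ± 0.12 in adipocytes (limma adjusted p = 0.00751), 0.03 ± 0.12 in SVCs, which was not called, and -0.51 ± 0.17 for the interaction term (limma adjusted p = 0.0356), a call that was lost under 11 alternatives. The adipocyte call of Mvd was lost under quantile normalization (-0.31, limma adjusted p = 0.0794). Cyp51, which opens the conversion of lanosterol, showed a like order with 5.37, 5.11 and 5.20 FPKM in IAT adipocytes and 8.89, 6.51 and 6.83 FPKM in EAT adipocytes. Its values were 7.02, 7.27 and 8.05 FPKM in IAT SVCs and 7.54, 6.40 and 7.26 FPKM in EAT SVCs. The adipocyte groups of Cyp51 did not overlap and its SVC groups did. The difference was -0.42 ± 0.10 in adipocytes (limma adjusted p = 0.00642), and the interaction term was -0.49 ± 0.14 (limma adjusted p = 0.0212), which was lost under quantile normalization and without EAT SVC replicate 2 or IAT SVC replicate 3 (limma adjusted p = 0.0516 to 0.0566). The adipocyte call was lost under median-of-ratios scaling (-0.30, limma adjusted p = 0.0538) and under quantile normalization (-0.26, limma adjusted p = 0.0801).

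The enzymes that remove methyl groups from the sterol ring act in sequence as Msmo1, Nsdhl and Hsd17b7, and they did not share a direction in adipocytes. Msmo1 had 7.35, 9.90 and 7.97 FPKM in IAT adipocytes and 16.7, 12.0 and 11.6 FPKM in EAT adipocytes, beside 9.48, 11.7 and 9.67 FPKM in IAT SVCs and 10.1, 8.23 and 10.7 FPKM in EAT SVCs. IAT adipocytes were low without overlap, by -0.61 ± 0.15 (limma adjusted p = 0.00611), the SVC groups overlapped, and the interaction term was -0.69 ± 0.21 (limma adjusted p = 0.0232). That term was lost without IAT adipocyte replicate 1 or 3, IAT SVC replicate 2 or EAT SVC replicate 2 (limma adjusted p = 0.0542 to 0.0643). Nsdhl had 28.3, 22.8 and 25.0 FPKM in IAT adipocytes and 17.2, 17.9 and 21.1 FPKM in EAT adipocytes, beside 7.24, 6.00 and 6.26 FPKM in IAT SVCs and 6.08, 5.76 and 5.68 FPKM in EAT SVCs. IAT adipocytes were high here without overlap, by 0.42 ± 0.099 (limma adjusted p = 0.00569), and the SVC difference was not called. Hsd17b7 had 1.64, 1.57 and 1.67 FPKM in IAT adipocytes and 2.07, 2.28 and 2.39 FPKM in EAT adipocytes, beside 2.39, 2.55 and 2.89 FPKM in IAT SVCs and 4.89, 4.32 and 4.68 FPKM in EAT SVCs. It was low in IAT in both fractions without overlap, by -0.31 ± 0.073 in adipocytes (limma adjusted p = 0.00599) and -0.64 ± 0.073 in SVCs (limma adjusted p = 1.6e-05). Its interaction term was 0.34 ± 0.10 (limma adjusted p = 0.0262), which was lost with a pseudocount of 0.1 and without IAT adipocyte replicate 1 or 3, IAT SVC replicate 1 or 2 or EAT SVC replicate 1 or 3 (limma adjusted p = 0.0531 to 0.0802), and the adipocyte call was lost under quantile normalization (-0.17, limma adjusted p = 0.0713).

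Sc5d had 35.6, 43.0 and 42.1 FPKM in IAT adipocytes and 49.5, 51.7 and 48.0 FPKM in EAT adipocytes, beside 9.89, 10.1 and 10.5 FPKM in IAT SVCs and 9.80, 9.93 and 9.77 FPKM in EAT SVCs. EAT adipocytes were high without overlap, by a difference of -0.30 ± 0.075 (limma adjusted p = 0.00723), and the interaction term was -0.34 ± 0.11 (limma adjusted p = 0.0259). That term was lost without IAT adipocyte replicate 1, EAT adipocyte replicate 2, IAT SVC replicate 3 or EAT SVC replicate 1 or 3 (limma adjusted p = 0.0526 to 0.0623). The adipocyte call was lost under median-of-ratios scaling (-0.16, limma adjusted p = 0.104) and quantile normalization (-0.23, limma adjusted p = 0.0583). Fdft1, which commits farnesyl diphosphate to sterols, had 21.4, 22.7 and 21.0 FPKM in IAT adipocytes and 23.4, 20.8 and 21.7 FPKM in EAT adipocytes, beside 19.0, 17.2 and 15.7 FPKM in IAT SVCs and 21.4, 24.0 and 23.1 FPKM in EAT SVCs. Its adipocyte groups overlapped and its SVC groups did not, with IAT SVCs lower by -0.38 ± 0.080 (limma adjusted p = 0.00208) and an interaction term of 0.37 ± 0.11 (limma adjusted p = 0.027). The Fdft1 term was lost without IAT adipocyte replicate 2, EAT adipocyte replicate 2 or 3, IAT SVC replicate 2 or 3 or EAT SVC replicate 2 or 3 (limma adjusted p = 0.0543 to 0.0696). Fdps, which makes farnesyl diphosphate, was higher in IAT in both fractions. It had 66.6, 53.6 and 56.6 FPKM in IAT adipocytes and 53.0, 32.4 and 38.7 FPKM in EAT adipocytes, and 24.2, 23.6 and 21.5 FPKM in IAT SVCs and 15.8, 15.9 and 17.1 FPKM in EAT SVCs. Neither pair overlapped, though the adipocyte gap was narrow, and the difference was 0.52 ± 0.14 in adipocytes (limma adjusted p = 0.0123) and 0.48 ± 0.14 in SVCs (limma adjusted p = 0.0173). The Fdps call was lost without IAT adipocyte replicate 1 and in a fit of that pair of groups by itself in adipocytes, and without EAT SVC replicate 1 or 2 or IAT SVC replicate 1 or 2 in SVCs.

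Acat2 and Pmvk were the other 2 enzymes called higher in IAT adipocytes, by 0.39 ± 0.10 (limma adjusted p = 0.00939) and 0.44 ± 0.15 (limma adjusted p = 0.037). Pmvk overlapped between the adipocyte groups, at 77.1 to 90.4 FPKM in IAT adipocytes and 48.3 to 78.8 FPKM in EAT adipocytes, and its call was lost under 7 alternatives. Of the other enzymes, Mvk, Idi1, Sqle, Lss, Tm7sf2, Ebp and Dhcr7 were called between depots in neither fraction, with differences of -0.16 to 0.27 in adipocytes and -0.07 to 0.26 in SVCs. Median-of-ratios scaling and quantile normalization each called Idi1 higher in IAT SVCs (limma adjusted p = 0.0379 and 0.0139). Both also called Dhcr7 (limma adjusted p = 0.00886 and 0.0109) and Mvk (0.0202 and 0.0309) higher in IAT adipocytes. Some fits without 1 library added Idi1 in SVCs and Dhcr7 in adipocytes as well. Without EAT adipocyte replicate 1, 49.3% of all features passed the test between adipocytes, and 7 of the 18 enzymes were higher in IAT adipocytes, with Mvk, Idi1 and Tm7sf2 added, while the same 6 were lower. Under median-of-ratios scaling, 49.9% of all adipocyte calls and 47.4% of all SVC calls were higher in IAT, against 27.5% and 34.8% as deposited, and 6 enzymes were higher and 4 lower in IAT adipocytes.

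**Figure D3:**
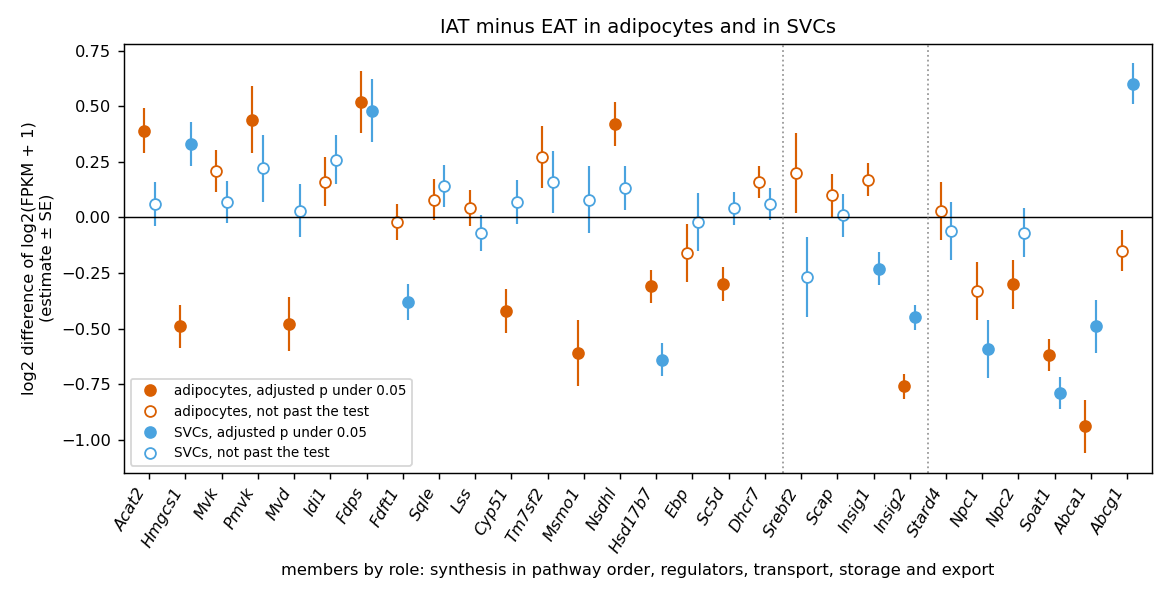
IAT minus EAT difference of log2(FPKM + 1), with SE bars, in adipocytes and in SVCs for the 28 genes by role, divided by dotted lines; filled points passed the test and open points did not. Hmgcs1 lies below 0 in adipocytes and above 0 in SVCs, Abcg1 lies above 0 in SVCs, and Insig2, Soat1 and Abca1 lie below 0 in both.

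The 4 regulators did not share a direction between fractions. Srebf2 and Scap were lower in adipocytes of both depots, Insig2 was higher in adipocytes of both, and Insig1 was called higher in adipocytes in IAT, by 0.43 ± 0.073 (limma adjusted p = 1.1e-04), with 0.02 ± 0.073 in EAT. Under median-of-ratios scaling Insig1 was called higher in EAT adipocytes than in EAT SVCs, by 0.35 (limma adjusted p = 0.001). Srebf2 had 5.97, 6.20 and 6.47 FPKM in IAT adipocytes, against 25.2, 22.8 and 25.0 FPKM in IAT SVCs, and 3.29, 6.54 and 6.61 FPKM in EAT adipocytes, against 29.2, 34.0 and 26.1 FPKM in EAT SVCs. The fractions were far apart in each depot, and EAT adipocyte replicate 1 was the lowest library. The adipocyte minus SVC difference was -1.81 ± 0.18 in IAT (limma adjusted p = 6.9e-07) and -2.29 ± 0.18 in EAT (limma adjusted p = 6.6e-08), and -2.01 ± 0.093 in EAT without that library. Scap was lower by -0.39 ± 0.097 in IAT and -0.48 ± 0.097 in EAT, and both calls were lost under median-of-ratios scaling (-0.02 in IAT and -0.17 in EAT) and quantile normalization (-0.07 in IAT and -0.19 in EAT).

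Srebf1, whose SREBP1 protein drives fatty acid synthesis, ran the other way from its paralog. It averaged 119 ± 19.1 FPKM in IAT adipocytes and 19.4 ± 0.900 FPKM in IAT SVCs, and 98.8 ± 9.46 FPKM in EAT adipocytes and 17.8 ± 2.16 FPKM in EAT SVCs (SD, n = 3 each). The Srebf1 to Srebf2 ratio of FPKM was 16.4, 21.7 and 19.2 in IAT adipocytes and 26.7, 15.8 and 15.9 in EAT adipocytes, against 0.737 to 0.854 in IAT SVCs and 0.586 to 0.615 in EAT SVCs. Srebf1 was thus the more abundant in every adipocyte library and the less abundant in every SVC library.

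Insig2, the INSIG form that in mouse liver is not an SREBP target, was lower in IAT than in EAT in both fractions. It had 18.8, 19.1 and 18.6 FPKM in IAT adipocytes and 33.3, 32.3 and 32.2 FPKM in EAT adipocytes, and 11.1, 10.9 and 10.9 FPKM in IAT SVCs and 15.4, 14.6 and 15.9 FPKM in EAT SVCs. The libraries of a group lay close together and no group overlapped another. The IAT minus EAT difference was -0.76 ± 0.057 in adipocytes (limma adjusted p = 5.8e-07) and -0.45 ± 0.057 in SVCs (limma adjusted p = 4.5e-05), and both calls held under all 21 alternatives. The interaction term was -0.32 ± 0.081 (limma adjusted p = 0.0101), which was lost under quantile normalization (-0.22, limma adjusted p = 0.0553). The gene lies at chr1:121304353-121332589 in the build of the tables.

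Insig1, which SREBP itself induces, had 63.0, 71.7 and 66.0 FPKM in IAT adipocytes and 63.6, 55.8 and 58.5 FPKM in EAT adipocytes, and 49.3, 48.8 and 50.0 FPKM in IAT SVCs and 60.2, 55.5 and 59.0 FPKM in EAT SVCs. The adipocyte groups overlapped by 1 library, and IAT SVCs lay below EAT SVCs without overlap. The difference was 0.17 ± 0.073 in adipocytes, which was not called (limma adjusted p = 0.0807), and -0.23 ± 0.073 in SVCs (limma adjusted p = 0.0216). The interaction term was 0.41 ± 0.10 (limma adjusted p = 0.0093), a call that held under the 20 alternatives run for it. Without EAT adipocyte replicate 1 Insig1 was called higher in IAT adipocytes by 0.22 ± 0.066 (limma adjusted p = 0.0144), and the SVC call was lost under both rescalings and without IAT SVC replicate 1 or 2 or EAT SVC replicate 1 or 3 (limma adjusted p = 0.0532 to 0.174). The Insig2 to Insig1 ratio of FPKM was 0.299, 0.266 and 0.281 in IAT adipocytes and 0.524, 0.579 and 0.551 in EAT adipocytes, against 0.217 to 0.225 in IAT SVCs and 0.255 to 0.269 in EAT SVCs.

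Of the 4 regulators, limma called 1 lower and 0 higher in IAT adipocytes than in EAT adipocytes (1 higher at an unadjusted p under 0.05), and 2 lower and 0 higher in IAT SVCs than in EAT SVCs (0 higher at an unadjusted p under 0.05). Over all features 37.6% were called between adipocyte groups and 40.2% between SVC groups, beside 1 of 4 regulators (25%) between adipocyte groups and 2 of 4 (50%) between SVC groups. Srebf2 was not called between depots, with 0.20 ± 0.18 in adipocytes and -0.27 ± 0.18 in SVCs. Without EAT adipocyte replicate 1, which left a smaller shared spread, the SVC difference of Srebf2 was called (limma adjusted p = 0.016). Scap was at 9.45 ± 0.346 FPKM in IAT adipocytes, 8.77 ± 0.940 FPKM in EAT adipocytes, 12.7 ± 0.0573 FPKM in IAT SVCs and 12.7 ± 1.87 FPKM in EAT SVCs and was called between depots in neither fraction.

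**Figure D4:**
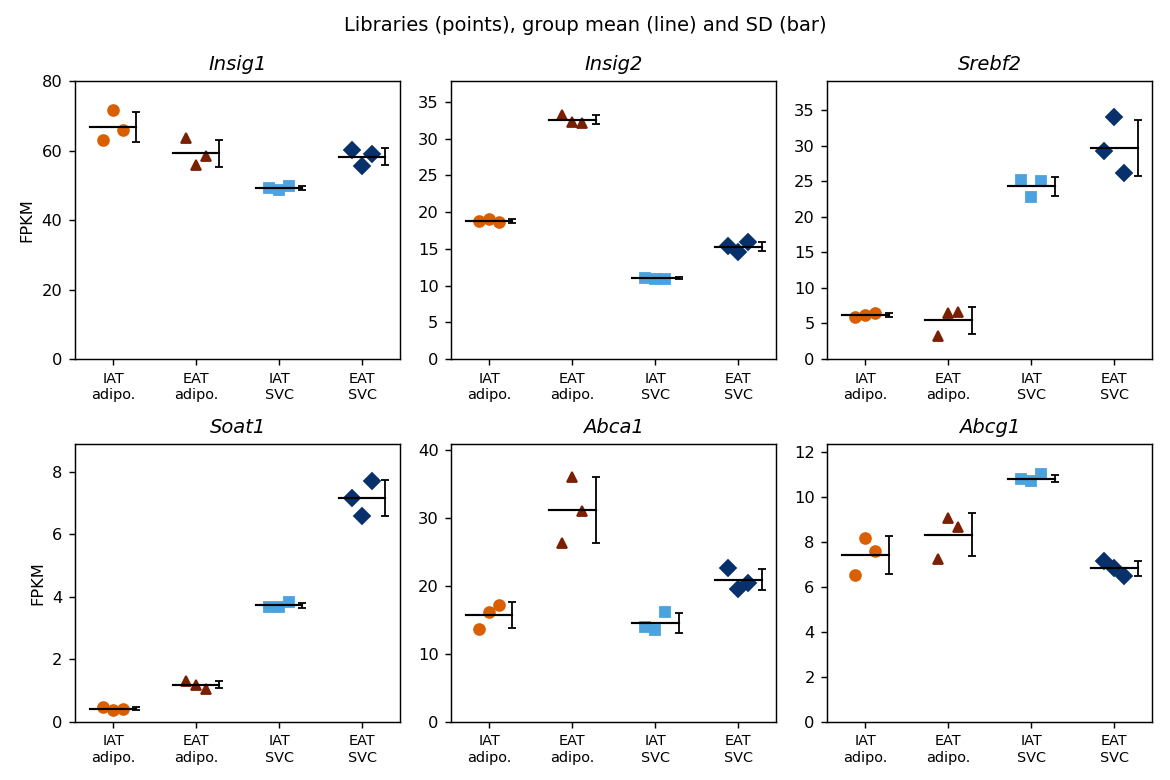
FPKM of 3 regulators (top) and 3 storage and export genes (bottom) in each library, with the group mean as a line and the SD as a bar. Insig2 and Soat1 separate IAT from EAT in both fractions, Srebf2 separates the fractions, and Abcg1 is highest in IAT SVCs.

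Of the 6 genes that move, store and export cholesterol, 3 were lower in IAT adipocytes than in EAT adipocytes (Npc2, Soat1 and Abca1) and limma called 0 higher (also 0 at an unadjusted p under 0.05), beside 27.3% of all features lower and 10.3% higher. In SVCs 3 were lower in IAT (Npc1, Soat1 and Abca1) and 1 was higher (Abcg1), beside 26.2% of all features lower and 14.0% higher. Their median difference was -0.32 in adipocytes and -0.28 in SVCs, against -0.10 in adipocytes and -0.06 in SVCs over all features. Macrophage markers were also lower in IAT: Cd68, Adgre1, Csf1r, Mrc1, Lyz2, C1qa, C1qb and Cd163 were all 8 lower in IAT adipocytes, with sums of 76.0 to 112 FPKM in IAT adipocytes and 440 to 557 FPKM in EAT adipocytes. In SVCs 7 of the 8 were lower in IAT, with sums of 2139 to 2341 FPKM in IAT SVCs and 3984 to 4175 FPKM in EAT SVCs, and none of the 8 was at 0 in any library. Their part in these results was not tested.

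Soat1, which esterifies cholesterol for storage, had the lowest adipocyte level relative to SVCs of the 6 genes in each depot. It had 0.467, 0.376 and 0.400 FPKM in IAT adipocytes and 1.29, 1.18 and 1.06 FPKM in EAT adipocytes, and 3.67, 3.67 and 3.82 FPKM in IAT SVCs and 7.17, 6.57 and 7.71 FPKM in EAT SVCs. No group overlapped another, and IAT was the lower depot in both fractions. The difference was -0.62 ± 0.071 in adipocytes (limma adjusted p = 2.5e-05) and -0.79 ± 0.071 in SVCs (limma adjusted p = 1.8e-06), which is understated for levels near 1 FPKM by the added 1. Its adipocyte mean was 11.1% of the SVC mean in IAT and 16.4% in EAT. The summed macrophage markers stood at 4.17% in IAT and 12.3% in EAT. Endothelial markers (Pecam1, Cdh5, Tie1, Tek, Egfl7, Emcn and Cldn5) stood at 20.9% in IAT and 20.3% in EAT. Mural markers (Rgs5, Acta2, Myh11, Notch3, Cspg4 and Tagln) stood at 13.5% in IAT and 23.0% in EAT. Stromal progenitor markers stood at 5.37% in IAT and 4.96% in EAT. The lymphocyte markers named below stood at 2.02% in IAT and 3.23% in EAT. The part of these cells in the Soat1 levels was not tested.

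Abca1, the pump that loads cholesterol onto apolipoprotein A-I, had 13.6, 16.1 and 17.2 FPKM in IAT adipocytes and 26.3, 36.0 and 31.0 FPKM in EAT adipocytes, and 13.9, 13.5 and 16.2 FPKM in IAT SVCs and 22.6, 19.5 and 20.4 FPKM in EAT SVCs. EAT was high without overlap in both fractions, and EAT adipocytes were the highest group. The difference was -0.94 ± 0.12 in adipocytes (limma adjusted p = 5.8e-05) and -0.49 ± 0.12 in SVCs (limma adjusted p = 0.00503), and the interaction term was not called (-0.45 ± 0.17, limma adjusted p = 0.0587) except without EAT adipocyte replicate 1 (-0.56 ± 0.14, limma adjusted p = 0.00854). Between fractions in IAT the Abca1 difference was not called as deposited. Adipocytes were called higher there under median-of-ratios scaling (0.47, limma adjusted p = 0.0013) and quantile normalization (0.35, limma adjusted p = 0.0218). The adipocyte mean of Abca1 was 149% of the SVC mean in EAT and 108% in IAT. The summed macrophage markers stood at 12.3% in EAT and 4.17% in IAT, and their part in the Abca1 levels was not tested.

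Abcg1, which exports cholesterol to high-density lipoprotein, ran against Abca1 in SVCs. It had 6.50, 8.14 and 7.59 FPKM in IAT adipocytes and 7.24, 9.06 and 8.63 FPKM in EAT adipocytes, and 10.8, 10.7 and 11.0 FPKM in IAT SVCs and 7.15, 6.83 and 6.47 FPKM in EAT SVCs. IAT SVCs were the highest group without overlap, and the adipocyte groups overlapped. The difference was 0.60 ± 0.092 in SVCs (limma adjusted p = 2.0e-04) and -0.15 ± 0.092 in adipocytes, which was not called. Without EAT adipocyte replicate 1 the adipocyte difference was called, at -0.23 (limma adjusted p = 0.0339). The interaction term was -0.74 ± 0.13 (limma adjusted p = 8.1e-04), a call that held under the 20 alternatives run for it. Lymphocyte markers also stood higher in IAT SVCs, in 7 of 7 (Cd3e, Cd3d, Cd79a, Cd79b, Ms4a1, Lat and Ccr7), with sums of 272 to 417 FPKM in IAT SVCs and 58.0 to 62.5 FPKM in EAT SVCs, none at 0 in an SVC library. Adipocyte markers were higher there too, in 8 of 8, as given above. Their part in the result was not tested. The Abcg1 to Abca1 ratio of FPKM was 0.441 to 0.505 in IAT adipocytes, 0.251 to 0.278 in EAT adipocytes, 0.680 to 0.790 in IAT SVCs and 0.316 to 0.350 in EAT SVCs.

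Npc1 and Npc2 work as a pair at the lysosome, and they differed between fractions in opposite directions. Npc1, the membrane protein, had 4.16, 4.08 and 4.56 FPKM in IAT adipocytes and 4.07, 6.88 and 6.25 FPKM in EAT adipocytes, and 10.3, 8.93 and 10.7 FPKM in IAT SVCs and 15.8, 15.7 and 14.9 FPKM in EAT SVCs. It was lower in adipocytes by -1.06 ± 0.13 in IAT (limma adjusted p = 8.1e-06) and -1.32 ± 0.13 in EAT (limma adjusted p = 9.3e-07), and lower in IAT SVCs than in EAT SVCs by -0.59 ± 0.13 (limma adjusted p = 0.00365). Between adipocyte groups it was not called (-0.33 ± 0.13, limma adjusted p = 0.0714), and without EAT adipocyte replicate 1, which lay just below the IAT values, it was (-0.52 ± 0.081, limma adjusted p = 2.4e-04).

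Npc2, the soluble partner, was the most abundant of the 28 genes in every group, at 189 ± 5.09 FPKM in IAT adipocytes, 236 ± 45.3 FPKM in EAT adipocytes, 112 ± 5.75 FPKM in IAT SVCs and 118 ± 4.97 FPKM in EAT SVCs. It was higher in adipocytes by 0.75 ± 0.11 in IAT (limma adjusted p = 3.3e-05) and 0.98 ± 0.11 in EAT (limma adjusted p = 2.7e-06). Its adipocyte depot difference, -0.30 ± 0.11, lay at the threshold (limma adjusted p = 0.0497) and was lost under 15 alternatives. Stard4, a soluble sterol carrier, passed the filter through SVCs only, since its adipocyte values were 0.616 to 0.708 FPKM in IAT adipocytes and 0.494 to 0.815 FPKM in EAT adipocytes. Its adipocyte minus SVC differences of -1.41 in IAT and -1.50 in EAT are therefore given as a description, and it was called between depots in neither fraction. Across the other 5 genes, adipocytes were lower for 3 (Npc1, Soat1 and Abcg1) and higher for 1 (Npc2) in IAT, and lower for 2 (Npc1 and Soat1) and higher for 3 (Npc2, Abca1 and Abcg1) in EAT. The shares of all features were 53.9% lower and 29.8% higher in IAT, and 52.7% lower and 31.1% higher in EAT. The Abcg1 call in EAT was lost in a fit of that pair of groups by itself and without EAT adipocyte replicate 2 or 3 or EAT SVC replicate 3 (limma adjusted p = 0.0537 to 0.0922). The Abcg1 call of lower in IAT adipocytes than in IAT SVCs was lost under both rescalings (-0.14 and -0.13).

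A second list held 22 other genes of cholesterol biology, of which 21 were tested and Abcg4 was too low. Between IAT and EAT, 2 were higher and 5 lower in adipocytes, and 4 were higher and 8 lower in SVCs. These calls were 33.3% of the list in adipocytes, against 37.6% of all features, and 57.1% in SVCs, against 40.2%. Cyp27a1, which hydroxylates the cholesterol side chain, had the largest adipocyte difference of the list, at 14.1 ± 1.27 FPKM in IAT adipocytes and 38.2 ± 1.91 FPKM in EAT adipocytes (-1.38 ± 0.081, limma adjusted p = 6.5e-08), beside 32.8 ± 2.28 FPKM in IAT SVCs and 54.2 ± 2.90 FPKM in EAT SVCs (-0.71 ± 0.081, limma adjusted p = 1.7e-05). Nceh1 and Lipa, hydrolases of cholesteryl esters, and Stard5, a sterol carrier, were lower in IAT in both fractions. The adipocyte call of Stard5 was lost under both rescalings (limma adjusted p = 0.0528 and 0.105) and that of Lipa under quantile normalization (limma adjusted p = 0.0582). Nceh1 was at 0.369 ± 0.102 FPKM in IAT adipocytes, 1.12 ± 0.0756 FPKM in EAT adipocytes, 4.68 ± 0.377 FPKM in IAT SVCs and 9.05 ± 0.369 FPKM in EAT SVCs, the same order as Soat1. Vldlr, a receptor for triglyceride-rich lipoproteins, was lower in IAT SVCs, at 3.77 ± 0.268 FPKM in IAT SVCs and 8.90 ± 0.540 FPKM in EAT SVCs (-1.06 ± 0.078, limma adjusted p = 2.8e-07), while adipocytes held 12.1 ± 0.619 FPKM in the IAT depot and 11.5 ± 0.848 FPKM in the EAT depot. The Vldlr interaction term was 1.12 ± 0.11 (limma adjusted p = 7.5e-06).

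Mesothelial markers separated the same SVC groups, with Msln, Upk3b, Upk1b, Lrrn4, Krt19 and Wt1 summing to 1.51 to 1.90 FPKM in IAT SVCs and 393 to 458 FPKM in EAT SVCs. In adipocytes they summed to 0.479 to 0.516 FPKM in IAT and 17.1 to 19.7 FPKM in EAT. All 6 were lower in IAT in both fractions. Upk1b was at 0 in all 3 IAT adipocyte libraries and Wt1 at 0 in all 3 IAT SVC libraries. Msln, Upk3b, Upk1b, Lrrn4 and Wt1 stayed under 1 FPKM in every IAT library and passed the filter through EAT libraries only. Their order is therefore given as a description. The part of mesothelial cells in the depot differences was not tested. Gramd1a, which carries accessible cholesterol from the plasma membrane, was higher in IAT SVCs by 0.71 ± 0.074 (limma adjusted p = 6.4e-06), at 54.9 ± 4.38 FPKM in IAT SVCs and 33.1 ± 1.36 FPKM in EAT SVCs. Its relative Gramd1b was lower in IAT SVCs by -0.53 ± 0.16 (limma adjusted p = 0.0199), a call lost without IAT SVC replicate 1 or 2 or EAT SVC replicate 1 or 2 (limma adjusted p = 0.0566 to 0.0793), and the interaction terms were -0.57 ± 0.10 for Gramd1a and 0.87 ± 0.23 for Gramd1b. Nr1h2, an oxysterol receptor, was higher in IAT adipocytes by 0.32 (limma adjusted p = 0.0146), and Mbtps2, the protease that completes SREBP cleavage, was lower there by -0.27 (limma adjusted p = 0.018). The Mbtps2 call was lost under both rescalings and without IAT adipocyte replicate 1 (limma adjusted p = 0.0805 to 0.256).

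Between fractions, 15 of the 21 were lower in adipocytes in each depot, with 5 higher in IAT and 4 higher in EAT, and medians of -0.48 in IAT and -0.54 in EAT. Over all features 53.9% were lower and 29.8% higher in IAT, and 52.7% lower and 31.1% higher in EAT. Median-of-ratios scaling ended 5 of the 15 calls of lower in IAT (Mbtps1, Mbtps2, Nr1h2, Stard5 and Osbp) and 4 in EAT (Mbtps2, Stard5, Gramd1a and Cyp27a1). Lbr, a sterol reductase of the nuclear envelope, was lower by -2.56 in IAT and -2.40 in EAT, Nceh1 by -2.05 in IAT and -2.25 in EAT, and Mylip, the ligase that degrades lipoprotein receptors, by -2.21 in IAT and -2.40 in EAT. Nr1h3, the oxysterol receptor that induces Abca1 and Abcg1, was higher by 1.77 in IAT and 1.82 in EAT, at 58.8 ± 2.03 FPKM in IAT adipocytes, 16.5 ± 2.06 FPKM in IAT SVCs, 63.1 ± 1.63 FPKM in EAT adipocytes and 17.3 ± 1.89 FPKM in EAT SVCs.

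Over the 28 genes, the depot difference itself differed between adipocytes and SVCs for 10, with 3 interaction terms above 0 and 7 below, against 32.5% of all features called (14.7% higher and 17.8% lower). They were Hmgcs1, Mvd, Cyp51, Msmo1, Sc5d, Insig2 and Abcg1 below 0 and Fdft1, Hsd17b7 and Insig1 above. The share of 10 in 28, 35.7%, lay near the background. Between adipocyte groups 14 of 28 were called, 50%, against 37.6%, and between SVC groups 10 of 28, 35.7%, against 40.2%. Between fractions 23 of 28, 82.1%, were called in each depot, against 83.7% in IAT and 83.8% in EAT, a count that includes Stard4.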

How the data were processed

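The 12 libraries were grouped by the depot and cell type in the labels. Per the submitters' processing notes, reads were handled with TopHat and Cufflinks on the mouse build GRCm38 (mm10). Tool versions, settings and the annotation used are not given in the sources used here. The authors deposited gene values in FPKM with confidence bounds, 1 table per library, in the layout of Cufflinks. No read counts are in these tables, so tests for raw counts were not run. For the 28 genes the widest bound of a library lay 31.8% from its value (Stard4) and the narrowest 1.23% (Npc2). These bounds describe each library by itself and not the spread between libraries.

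The analysis used log2(FPKM + 1) of the 13175 features that reached 1 FPKM in 3 or more libraries. A linear model with a mean for each of the 4 groups, without a block, was fitted in limma 3.58.1 (lmFit and trended eBayes, R 4.3.3). Depots were compared within each fraction and fractions within each depot, and the interaction was the adipocyte depot difference minus that of SVCs. Tests were two-sided, and p-values were Benjamini-Hochberg adjusted over all features within a contrast. The procedure was tested on simulated data. Promoter windows came from RefSeq tables of build GRCm38.p6, matched by symbol. Python 3.11.15 with pandas 2.3.3, NumPy 2.4.6 and matplotlib 3.10.9 made tables and plots.

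The 28 genes, the other lists and the tests were chosen with earlier results of these data known, so no test was made over a list. Full values were given for genes called in a depot contrast or the interaction, up to 10 per contrast by smallest p, and of the other cholesterol genes up to 6 per contrast. The 21 alternatives comprised pseudocounts of 0.1 and 0.5, no filter and a filter on the mean, median-of-ratios scaling, quantile normalization, fitting each pair of groups by itself (not possible for the interaction, which had 20), untrended eBayes, the replicate number as a block, and leaving out each library.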

Additional observations from a re-analysis of the deposited data

Results flagged for a closer look

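The depot difference of 10 of the 28 genes differed between adipocytes and SVCs by limma's interaction term, with an adjusted p under 0.05. This share, 35.7%, lay near the 32.5% of all features called. With 3 libraries a group, no formal test for a single outlying library was made. The terms are IAT minus EAT in adipocytes minus IAT minus EAT in SVCs, on the log2(FPKM + 1) scale.

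Of the synthesis enzymes, Hmgcs1 had -0.83, Msmo1 -0.69, Mvd -0.51, Cyp51 -0.49 and Sc5d -0.34, while Fdft1 had 0.37 and Hsd17b7 had 0.34. The 5 negative terms belong to enzymes that were lower in IAT adipocytes than in EAT adipocytes, and the 2 positive ones to enzymes that were lower in IAT SVCs than in EAT SVCs by more than in adipocytes. Of the regulators, Insig1 had 0.41 and Insig2 -0.32. Of the export genes, Abcg1 had -0.74. Hmgcs1, Insig1 and Abcg1 passed the test under each of the 20 alternatives run for the interaction.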

How the results depend on the processing

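Of the 140 differences of the 28 genes, 80 were called, and 54 of these kept their sign and call under every alternative, while 25 were lost under at least 1 (9 under the rescalings only) and 1 changed sign. That one was Hsd17b7, adipocyte minus SVC in IAT, at 0.11 under quantile normalization (limma adjusted p = 0.129), where the cause was not tested. A further 23 were called under at least 1 alternative. Under median-of-ratios scaling, the regulators called were 1 higher between adipocyte groups, 1 lower between SVC groups, 2 higher and 1 lower between fractions in EAT, and 1 lower in IAT, where 1 synthesis enzyme was lower and 2 handling genes were higher. Under quantile normalization, 2 synthesis enzymes were lower and 1 regulator higher between adipocyte groups, 1 regulator was lower between SVC groups and 1 between fractions in EAT, and between fractions in IAT 0 synthesis enzymes were lower, 1 regulator was lower and 2 handling genes were higher. Its interaction terms had 3 synthesis enzymes, 0 regulators and 2 handling genes below 0. Calls over all features shifted too. Of those between adipocyte groups, 27.5% were higher in IAT as deposited, 49.9% under median-of-ratios scaling and 48.5% under quantile normalization. In the same order, the shares were 34.8%, 47.4% and 50.2% between SVC groups. Between fractions they were 37.1%, 48.3% and 51.3% in EAT and 35.6%, 48.8% and 51.3% in IAT. For the interaction they were 45.3%, 50.8% and 48.1%. With a pseudocount of 0.1, 1 synthesis enzyme had an interaction term above 0. Fitting the pair of groups by itself, 2 synthesis enzymes were higher in IAT adipocytes.

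Leaving out 1 library gave 3678 to 6476 calls over all features between adipocyte groups, 4053 to 6570 between SVC groups and 3342 to 5263 for the interaction, against 4960, 5301 and 4281 with all libraries. Between adipocyte groups it gave 2 to 7 synthesis enzymes higher, 0 to 1 regulator higher and 2 to 4 handling genes lower. Between SVC groups it gave 0 to 3 synthesis enzymes higher and 1 to 3 regulators lower. Between fractions in EAT it gave 2 to 3 handling genes higher, and in IAT 2 to 3 synthesis enzymes lower. For the interaction it gave 0 to 4 synthesis enzymes above 0, 2 to 5 below and 1 to 2 handling genes below. The counts of 6476, 6570 and 5263 came without EAT adipocyte replicate 1.

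With the replicate number as a block, 4796 features were called between adipocyte groups and 5205 between SVC groups, and the calls of Npc2 between adipocyte groups (limma adjusted p = 0.0581) and of Dhcr7 between fractions in IAT were lost. The labels do not say that a number marks shared mice, and deviations of same-numbered libraries correlated at -0.312 to 0.373 (5 of 18 pairs over 0.1), against -0.459 to 0.367 for other pairs. With 3 libraries a group, differences that were small beside their SE could not be called.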
